A study of Mus musculus with 30 samples.

Results

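The genes described here are 38 mouse genes of glycolysis and of the cellular response to low oxygen: glucose transporters, the enzymes that turn glucose into lactate, their regulators, the oxygen-sensing machinery and well-known targets of the hypoxia-inducible factor HIF-1. They were taken by symbol from a list, and all 38 were found among the 20286 gene symbols of the expression tables. All 38 were also among the 12053 genes measured, which here means a level of at least 1 FPKM (fragments per kilobase of transcript, scaled to the size of the library) in either genotype. The list was chosen by pathway with the FPKM changes between these genotypes already known, so the changes below are descriptions and support nothing further.

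The study compared mouse embryonic stem (ES) cells of strain C57BL/6-ICR that carry floxed alleles of Tdg (Tdg fl/fl) with ES cells that lack it (Tdg -/-). Tdg encodes thymine DNA glycosylase, the repair enzyme that removes 5-formylcytosine from DNA. Expression was measured in 4 polyA RNA libraries, 2 for each genotype, but the authors deposited 1 pooled FPKM value for each gene and genotype. No spread between replicates, test or read depth can therefore be given, and the sources used here do not say whether the libraries came from separate cultures or clones. The labels name no oxygen level, glucose level or further treatment for these RNA libraries.

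Glycolysis splits glucose into pyruvate in the cytosol, and lactate dehydrogenase turns that pyruvate into lactate. ES cells are known for a high rate of glycolysis even where oxygen is plentiful. HIF-1 joins an oxygen-labile alpha subunit, encoded by Hif1a, to a stable partner, and it binds a short DNA motif in the promoters and enhancers of glycolytic and other target genes. Prolyl hydroxylases of the EGLN family mark the alpha subunit for destruction when oxygen is present, so many targets stay low until oxygen falls.

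Most of the 38 genes were lower in Tdg -/- cells, by modest amounts. Each change is the log2 ratio of Tdg -/- to fl/fl after adding 1 FPKM to both, a scale on which low genes appear to differ less than they do. The change was below 0 for 30 of the 38 genes, against 54.9% of all measured genes, and its median was -0.32, against -0.02 over all measured genes. A change of -0.25 or lower was found for 21 of the 38 (55.3%), against 10.2% of all measured genes, and a change of 0.25 or higher for Vegfa alone, against 8.92%. A change of -0.5 or lower was found for 9 members, against 1.63% of measured genes, and Ankrd37 alone passed -1, against 0.174%. Vegfa was also the 1 member higher by 0.5 or more (1.82% of measured genes), and none was higher by 1 or more (0.183%). With both tables scaled to equal summed FPKM, the shares of all measured genes lower and higher by 0.25 or more were 6.42% and 13.1%, and 19 members were lower and 2 higher.

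The summed FPKM of the 38 genes was 7107 in fl/fl and 5438 in Tdg -/- cells, so that 76.5% of it remained. Their share of all FPKM in the table was 1.59% in fl/fl and 1.28% in Tdg -/- cells. Abundant genes in general were slightly lower in Tdg -/- cells, with FPKM as deposited. The whole Tdg -/- table summed to 95.4% of the fl/fl table, and genes on chromosome 11 held 46.5% of that fall. Among the 701 genes with at least 100 FPKM in either genotype, a level chosen after the data were seen, the median change was -0.08 and 19.5% were lower by 0.25 or more. Of the 13 members at that level, 10 were lower by 0.25 or more and none was higher by that much (6.56% of the 701 genes were). The change was below 0 for 11 of the 13, against 69.8%, and -0.5 or lower for 5, against 2.85%. None of the 13 was higher by 0.5 (1.43%) or lower by 1 (0.428%). Ldha ranked 5 from the lowest change among those 701 genes, Tpi1 ranked 7 and Eno1 ranked 9.

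**Figure D1:**
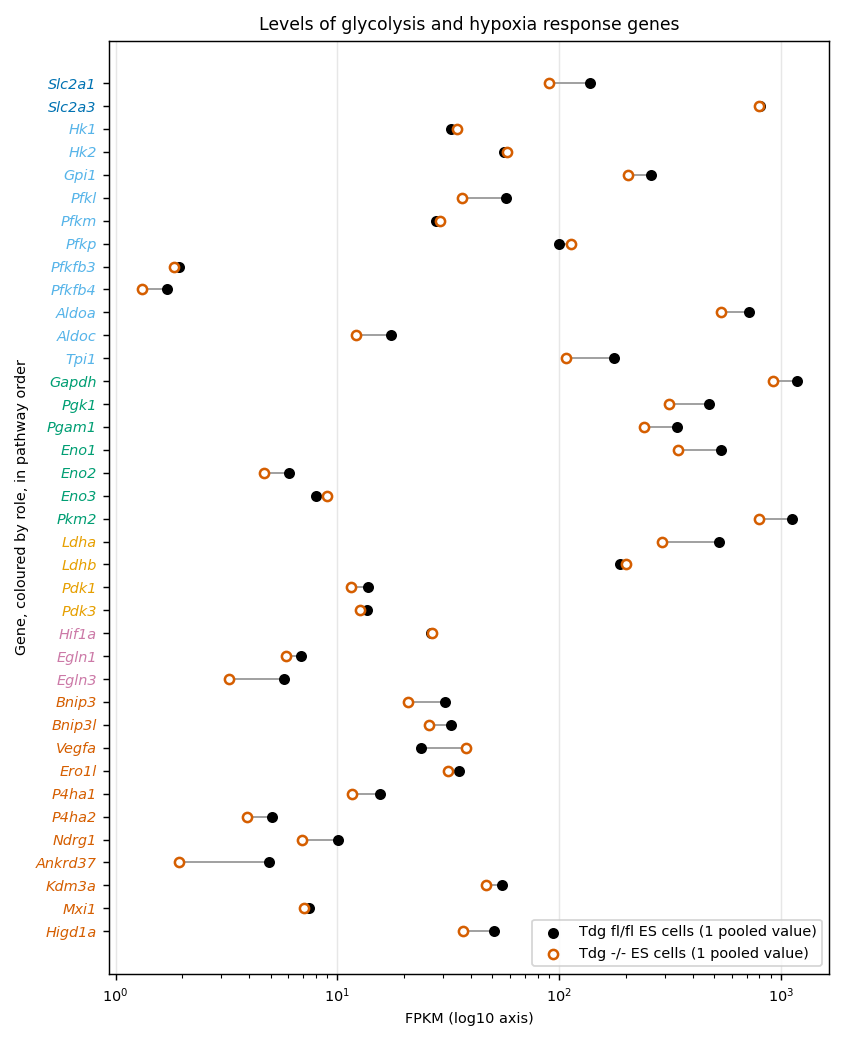
FPKM of each of the 38 genes in Tdg fl/fl (filled) and Tdg -/- (open) ES cells on a log10 axis, in pathway order with names coloured by role. Each point is 1 pooled value with no error bar. Levels run from 1.32 FPKM (Pfkfb4) to 1178 FPKM (Gapdh), and the open point lies to the left of the filled one for 30 genes.

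Sequence just upstream of the gene start was read for the members, because HIF-1 binds the core motifs ACGTG and GCGTG. The promoter table, from RefSeq with the build GRCm38.p6, held an entry for 35 of the 38 genes, and the most upstream start of each was used. Shown are the 250 bases before the start for the 4 members with the lowest changes, followed by Ldhb and Vegfa, which did not share that direction. Capitals mark ACGTG or GCGTG on either strand.
Ldha, chr7:46845554-46845803, plus strand: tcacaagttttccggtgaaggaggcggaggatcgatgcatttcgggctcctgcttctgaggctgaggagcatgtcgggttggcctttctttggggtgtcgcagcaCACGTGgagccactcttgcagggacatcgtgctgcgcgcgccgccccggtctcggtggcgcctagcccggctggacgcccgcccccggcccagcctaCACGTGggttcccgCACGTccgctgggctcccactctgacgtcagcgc
Ankrd37, chr8:45999851-46000100, minus strand: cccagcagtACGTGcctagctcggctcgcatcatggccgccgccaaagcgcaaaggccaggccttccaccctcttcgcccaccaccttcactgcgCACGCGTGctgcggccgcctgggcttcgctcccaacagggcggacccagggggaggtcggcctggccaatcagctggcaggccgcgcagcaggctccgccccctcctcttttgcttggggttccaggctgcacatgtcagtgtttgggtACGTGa
Egln3, chr12:54203875-54204124, minus strand: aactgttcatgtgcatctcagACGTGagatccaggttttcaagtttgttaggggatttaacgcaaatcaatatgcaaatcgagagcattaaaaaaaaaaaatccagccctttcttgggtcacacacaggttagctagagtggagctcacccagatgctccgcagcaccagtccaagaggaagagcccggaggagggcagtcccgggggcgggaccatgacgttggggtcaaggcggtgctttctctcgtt
Tpi1, chr6:124814159-124814408, minus strand: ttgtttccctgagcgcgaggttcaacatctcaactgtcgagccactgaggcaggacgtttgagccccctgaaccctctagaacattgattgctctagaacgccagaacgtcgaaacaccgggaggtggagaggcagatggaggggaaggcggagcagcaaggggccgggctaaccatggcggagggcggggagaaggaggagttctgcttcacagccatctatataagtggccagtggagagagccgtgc
Ldhb, chr6:142507958-142508207, minus strand: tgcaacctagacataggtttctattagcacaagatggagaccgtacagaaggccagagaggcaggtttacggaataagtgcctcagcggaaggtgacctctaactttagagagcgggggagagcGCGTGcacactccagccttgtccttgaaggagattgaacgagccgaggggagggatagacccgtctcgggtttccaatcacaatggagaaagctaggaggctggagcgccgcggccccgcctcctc
Vegfa, chr17:46032378-46032627, minus strand: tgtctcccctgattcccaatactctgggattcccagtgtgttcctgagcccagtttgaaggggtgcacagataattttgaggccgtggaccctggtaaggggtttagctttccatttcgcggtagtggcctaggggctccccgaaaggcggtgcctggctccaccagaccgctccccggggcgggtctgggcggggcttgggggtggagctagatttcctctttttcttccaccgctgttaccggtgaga
Ldha held CACGTG at 2 places, each of which reads as ACGTG on both strands and is also the E-box letters, and a further ACGTG on the minus strand. Ankrd37 held 4 matches, in which CACGC and GCGTG overlap at 1 place. Egln3 and Ldhb held 1 match each, and Tpi1 and Vegfa held none in these windows. The windows shown do not stand for all members. Of the 8 members with a change above 0, Pfkp and Hif1a held 3 matches each, counting both strands. Hk2 and Pfkm held 2 each, Eno3 and Ldhb 1 each, and Hk1 and Vegfa none. Of the members lower by 0.25 or more, Tpi1, Gpi1, Aldoa, Eno2 and Pkm2 held none, and the others with an entry held at least 1. Over the 35 members, 27 (77.1%) had at least 1 match, against 38.6% of all 27025 promoters in the table, 57.8% of 9475 measured genes with an entry and 64.2% of the 551 of them with at least 100 FPKM. ACGTG alone was found at 16 members (45.7%), against 16.5%, 22.3% and 27.2% of those sets. Among the 12 oxygen sensing and target genes with an entry 8 (66.7%) held ACGTG, and among the 23 genes of glycolysis 8 (34.8%) did. A match in such a short window is a description of the letters, and HIF-1 binding was not measured in this series. Known HIF-1 targets were listed on purpose, so a share above that of other sets is no independent sign of HIF-1 control.

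The glucose transporters carry glucose across the cell membrane, and the pair in the list differed. Slc2a1, which encodes GLUT1, the basal glucose transporter of most cells, stood at 137 FPKM in floxed cells and 89.8 FPKM in Tdg -/- cells, a log2 change of -0.61. Slc2a3, which encodes the high-affinity transporter GLUT3, stood at 806 and 800.2 FPKM, a change of -0.01. Slc2a3 was thus by far the more abundant transcript in both genotypes, and its share of the summed FPKM of the pair was 85.4% in fl/fl and 89.9% in Tdg -/- cells. The sign of the Slc2a3 change turned to 0.01 after centring on all measured genes, 0.06 after scaling to equal summed FPKM and 0.10 after subtracting its chromosomal neighbours.

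The first enzymes of glycolysis trap glucose and commit it to breakdown. Hexokinase phosphorylates glucose, and neither of its members was lower: Hk1 stood at 32.5 and 34.7 FPKM (0.09) in fl/fl and Tdg -/- cells, and Hk2, which HIF-1 is known to induce, at 56.3 and 58.3 FPKM (0.05). Gpi1, the isomerase of the next step, stood at 259 and 205 FPKM, a change of -0.34. It was the first enzyme along the pathway with a change past -0.25.

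Phosphofructokinase, the main control point of the pathway, has liver, muscle and platelet type subunits, and their transcripts moved apart. Pfkl, the liver type, stood at 57.8 FPKM in floxed cells and 36.6 FPKM in Tdg -/- cells, a change of -0.65. Pfkm, the muscle type, stood at 27.8 and 29.1 FPKM (0.06), and Pfkp, the platelet type, at 99.4 and 113 FPKM (0.19, or 0.26 with equal summed FPKM). The summed FPKM of the step therefore stayed close, at 185 and 179, while the share of Pfkl was 31.2% in fl/fl and 20.4% in Tdg -/- cells and that of Pfkp 53.7% and 63.3%. The bifunctional enzymes that make and remove fructose 2,6-bisphosphate, an activator of phosphofructokinase, were near the minimum of measurement. Pfkfb3 stood at 1.93 and 1.83 FPKM (-0.05), and Pfkfb4 at 1.71 and 1.32 FPKM (-0.23, or -0.35 with a pseudocount of 0.1 FPKM and -0.26 after quantile normalization).

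Aldolase splits the 6-carbon sugar, and both genes of it were lower. Aldoa, which made up 97.6% of the aldolase FPKM in fl/fl cells and 97.8% in Tdg -/- cells, stood at 717 and 536 FPKM, a change of -0.42. Aldoc stood at 17.5 and 12.2 FPKM, a change of -0.49, and lies on chromosome 11, whose genes were lower as a whole. Tpi1, the isomerase that makes both products of that split usable, stood at 177 and 107 FPKM. Its change of -0.72 was the lowest among the enzymes upstream of Gapdh. Of the 11 genes from hexokinase to Tpi1, 5 were lower by 0.25 or more, none was higher by that much, against 10.2% and 8.92% of all measured genes, and the median was -0.23. Without chromosome 11, which leaves out Aldoc, this median was -0.14.

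The lower part of glycolysis, in which ATP is made, was lower almost throughout. Of its 7 genes, 6 were lower by 0.25 or more, against 10.2% of all measured genes, and the median was -0.48. Gapdh, which couples oxidation to phosphate uptake and is often used as a reference gene, stood at 1178 FPKM in floxed cells and 917 FPKM in Tdg -/- cells, a change of -0.36, which was -0.23 after quantile normalization. Pgk1, the first ATP-making step, stood at 476 and 314 FPKM (-0.60). Pgam1, which shifts the phosphate, stood at 339 and 242 FPKM (-0.48). These abundant transcripts thus lay 1.28-fold to 1.52-fold lower in Tdg -/- cells.

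Enolase makes phosphoenolpyruvate, and its main gene carried the difference. Eno1 stood at 537 FPKM in floxed cells and 344 FPKM in Tdg -/- cells, a change of -0.64. Eno2, the neuronal form, stood at 6.06 and 4.67 FPKM (-0.32), and Eno3, the muscle form, at 8.0 and 8.97 FPKM (0.15). Of the summed FPKM of Eno1, Eno2 and Eno3, Eno1 held 97.4% in fl/fl and 96.2% in Tdg -/- cells. This sum leaves out Gm5506, described next. A near-identical copy, Gm5506, named after the values were seen, stood at 344 and 222 FPKM (-0.63), and the sources used here do not say how reads that match both were divided. Eno1 and Gm5506 summed stood at 881 and 566 FPKM, a change of -0.64. Pkm2, the tables' symbol for the pyruvate kinase gene now called Pkm, stood at 1122 and 799 FPKM, a change of -0.49. The symbol covers the gene in these tables, so nothing can be said of the PKM1 and PKM2 splice forms.

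The genes that decide the fate of pyruvate showed the widest contrast between isozymes. Ldha, the subunit that favours lactate production, stood at 525 FPKM in floxed cells and 292 FPKM in Tdg -/- cells. This change of -0.85 was the lowest among the 24 genes of glucose transport, glycolysis and pyruvate use. Ldhb, the subunit that favours the use of lactate, stood at 188 and 200.0 FPKM, a change of 0.09. The Ldha share of the pair was 73.6% in fl/fl and 59.3% in Tdg -/- cells, which is 14.3 percentage points less. Pyruvate dehydrogenase kinases inhibit pyruvate dehydrogenase in the mitochondrial matrix and so limit the conversion of pyruvate to acetyl-CoA. Pdk1, a HIF-1 target, stood at 13.7 and 11.5 FPKM (-0.23) and Pdk3 at 13.7 and 12.6 FPKM (-0.11), so neither passed -0.25.

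**Figure D2:**
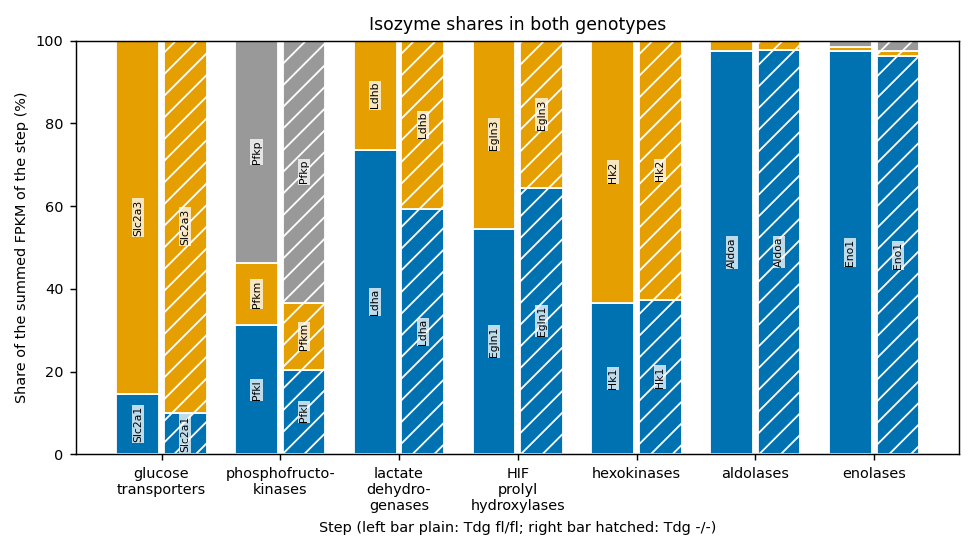
Share of the summed FPKM of each step held by each isozyme, in percent, in Tdg fl/fl (left bar of each pair) and Tdg -/- (right, hatched) ES cells, with segments under 8% unlabelled. The Ldha share goes from 73.6% to 59.3% and the Pfkl share from 31.2% to 20.4%. The hexokinase, aldolase and enolase shares stay within 1.26 percentage points. The enolase bars leave out Gm5506, and the HIF prolyl hydroxylase bars leave out Egln2.

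The 3 listed genes of oxygen sensing differed in their change. Hif1a, the alpha subunit, stood at 26.5 FPKM in floxed cells and 26.8 FPKM in Tdg -/- cells, a change of 0.01, and HIF-1 is mainly controlled through the stability of this protein, which was not measured. Egln1, the main prolyl hydroxylase of the alpha subunit, stood at 6.88 and 5.86 FPKM (-0.20). Egln3, a prolyl hydroxylase that is itself induced by HIF, stood at 5.72 and 3.24 FPKM, a change of -0.67. Egln3 was thus the only 1 of the 3 past -0.25. Egln2, a further isozyme outside the list, stood at 18.8 FPKM in floxed cells and 18.0 FPKM in Tdg -/- cells (-0.06).

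Among the 11 hypoxia targets, 7 were lower by 0.25 or more (10.2% of all measured genes were), Vegfa was higher (8.92%), and the median was -0.32. Ankrd37, a small ankyrin repeat gene known as a HIF-1 target, stood at 4.92 FPKM in floxed cells and 1.94 FPKM in Tdg -/- cells. Its change of -1.01 was the lowest of all 38 genes and ranked 21 from the lowest among the 12053 measured genes. Bnip3 and Bnip3l encode mitophagy receptors of the outer mitochondrial membrane. Bnip3 stood at 30.4 and 20.9 FPKM (-0.52), and Bnip3l at 32.5 and 25.9 FPKM (-0.32). Higd1a, a mitochondrial protein induced by hypoxia, stood at 50.6 and 36.8 FPKM (-0.45). With equal summed FPKM, Bnip3l was at -0.2499, just short of -0.25.

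Collagen prolyl hydroxylases modify collagen in the endoplasmic reticulum, and the transcripts of both alpha subunits in the list were lower. P4ha1 stood at 15.6 and 11.6 FPKM (-0.40), and P4ha2 at 5.05 and 3.93 FPKM (-0.30). P4ha2 lies on chromosome 11, and its change was -0.06 after subtracting its neighbours and -0.24 with equal summed FPKM. Ndrg1, a stress-response gene strongly induced by hypoxia, stood at 10.0 and 6.91 FPKM (-0.48).

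The remaining targets were within 0.25 of no change, apart from Vegfa. Kdm3a, a histone H3 lysine 9 demethylase, stood at 55.2 and 46.8 FPKM (-0.23), and Ero1l, an oxidase of the endoplasmic reticulum, at 35.4 and 31.7 FPKM (-0.16). Mxi1, an antagonist of MYC, stood at 7.45 and 7.09 FPKM (-0.06). Vegfa, the angiogenic growth factor and a textbook HIF-1 target, went the other way. It stood at 23.7 FPKM in floxed cells and 37.8 FPKM in Tdg -/- cells, a change of 0.65 that ranked 80 from the highest among measured genes.

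**Figure D3:**
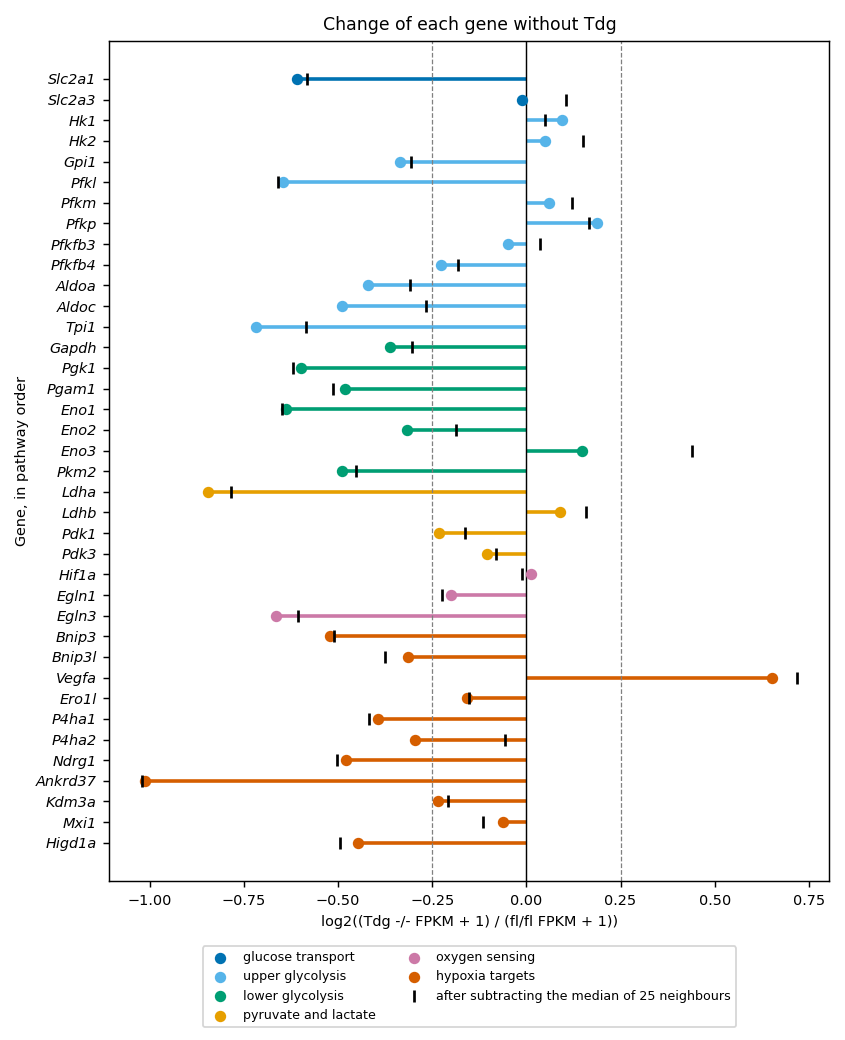
log2 change of each of the 38 genes in Tdg -/- against Tdg fl/fl ES cells (points, coloured by role) and the same less the median of the 25 nearest measured genes (black ticks). Dashed lines mark -0.25 and 0.25; 21 points lie at or left of the lower line, Vegfa lies right of the upper one, and the ticks of Eno3 and P4ha2, both on chromosome 11, are farthest from their points.

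The position of the genes was set beside these values, because chromosome 11 was lower as a whole. The median over its 999 measured genes was -0.21, while the other 19 chromosomes had medians from -0.03 to 0.0044. Only Aldoc, Eno3 and P4ha2 of the 38 genes lie there. Without chromosome 11, 19 of 35 members were lower by 0.25 or more and 1 was higher, against 7.33% and 9.41% of the measured genes left, and the members' median was -0.32. After subtracting the median of the 25 nearest measured genes, 19 of the 38 were lower by 0.25 or more, against 7.0% of genes, and Eno3 moved to 0.44. Aldoc was then at -0.27 and Eno2, on chromosome 6, at -0.19. Members off chromosome 11 moved by at most 0.13. The 38 genes lie on 15 chromosomes.

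Level and change were not closely tied across all 38 members, with Pearson's r of -0.14 and Spearman's rho of -0.16 between log2 level and change. The sign differed between the subsets. Over the 24 genes of glucose transport, glycolysis and pyruvate use, Pearson's r was -0.38 and Spearman's rho -0.40. Over the 14 oxygen sensing and target genes the values were 0.45 and 0.42. Across all 12053 measured genes they were -0.15 and -0.18. These are correlations across genes of the same pooled tables, which are not independent replicates.

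**Figure D4:**
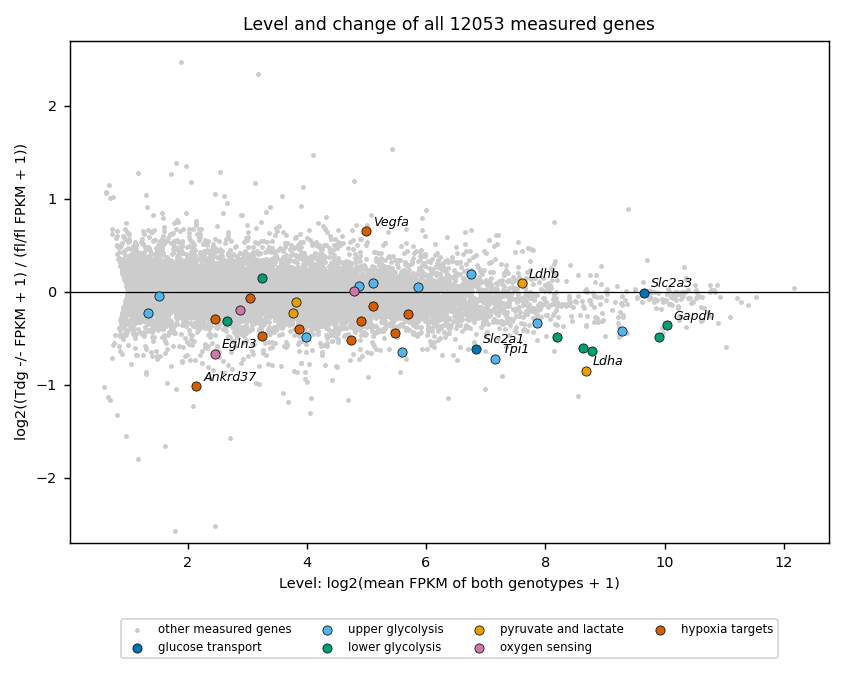
Level, as log2 of the mean FPKM of both genotypes plus 1, against log2 change for all 12053 measured genes (grey) and the 38 genes described here (coloured by role). Ldha, Tpi1 and Slc2a1 lie at the lower edge of the genes of like level, Ldhb and Slc2a3 near 0 and Vegfa above it.

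Other genes of the same pathways were described in the same way. Of 22 measured further HIF targets, 7 (31.8%) were lower by 0.25 or more and 4 (18.2%) higher, against 10.2% and 8.92% of all measured genes, and the median was -0.16. Slc16a3, which exports lactate, stood at 34.9 FPKM in floxed cells and 15.0 FPKM in Tdg -/- cells (-1.16), and after subtracting its neighbours on chromosome 11 it was at -0.80. Tfrc, the transferrin receptor, stood at 107 and 66.7 FPKM (-0.68). Fam162a, a mitochondrial protein gene, stood at 49.4 and 32.0 FPKM (-0.61).

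Of the 12 measured partners and regulators of HIF, 10 (83.3%) were below 0, against 54.9% of all measured genes, but none was lower by 0.25 or more, against 10.2%. The ubiquitin ligase gene Siah2 was at 0.52, from 2.50 to 4.03 FPKM, and Siah1a was at 0.21, Rbx1 at -0.19 and Hif3a at -0.18. Their median was -0.10. Further isozymes of glycolysis and gluconeogenesis reached the minimum level in 11 of 23 cases, and their median was -0.03. Pck2, the mitochondrial enzyme that makes phosphoenolpyruvate from oxaloacetate, was at 0.80, from 43.4 to 76.1 FPKM, and Pdk4 was at 0.42. Bpgm, which makes 2,3-bisphosphoglycerate, was at -0.32 and the muscle form Pgam2 at -0.30. After subtracting neighbours, Pdk4 on chromosome 6 was at 0.0042 and Pgam2 on chromosome 11 at -0.03.

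Routes that branch from glycolysis or follow it were taken next. Of 12 measured genes of pyruvate entry into mitochondria, none was lower or higher by 0.25, and the median was -0.03. Of all measured genes, 10.2% were lower and 8.92% higher by that much. Pdp2 was at -0.24, Pdha1 at 0.24, Brp44 at -0.20 and Dld at -0.15. The pentose phosphate pathway had a median of -0.12 over 7 genes, with Rpe at 0.34, Pgls at 0.29, Taldo1 at -0.21 and G6pdx at -0.18. The TCA cycle had a median of -0.06 over 18 genes. Of these, 4 (22.2%) were lower by 0.25 or more, against 10.2% of all measured genes. Idh2 alone (5.56%) was higher, against 8.92%. Suclg2 was at -0.47, Ogdh at -0.41, Mdh1 at -0.36 and Idh2 at 0.35, and on chromosome 11 lie Ogdh and Mdh1, at -0.12 and -0.22 after subtracting neighbours. No test of the difference between these lists and the 38 genes can be made from pooled values.

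**Figure D5:**
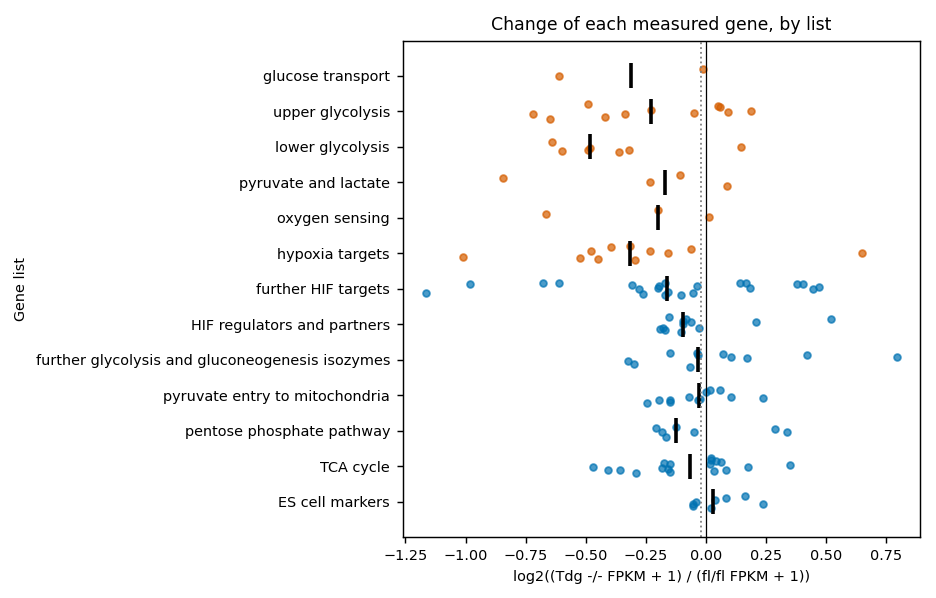
log2 change of each measured gene by list, with the 38 genes described here in orange by role, comparison lists and ES cell markers in blue, the list median as a black bar and the median of all measured genes as a dotted line. The lower glycolysis median is -0.48, and the medians of the comparison lists lie between -0.16 and -0.03.

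The labelled cell type was checked against its markers, and the deleted gene was checked too. Tdg stood at 22.1 FPKM in floxed cells and 9.48 FPKM in Tdg -/- cells, so that 42.9% of its value remained, and the sources used here do not name the deleted part of the gene. The 8 ES cell markers summed to 6936 and 7090 FPKM, and each was within 0.25 of no change. The 8 fibroblast or feeder markers summed to 5.79 and 4.25 FPKM with Lum listed at 0, the 7 endoderm markers to 2.05 and 1.85 FPKM, and the 5 neural markers found to 28.3 and 26.7 FPKM. The 7 mesoderm and blood markers summed to 63.9 and 61.8 FPKM, nearly all of it Pecam1, which ES cells are known to express, with Hba-x and Hbb-y listed at 0. In bulk RNA, fewer cells with a transcript and less of it per cell cannot be told apart.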

How the data were processed

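Levels came from 2 tables of FPKM that the authors deposited, 1 for each genotype, each covering 2 libraries of polyA RNA read at 51 bp. TopHat 1.4.1, Cufflinks 1.3.0 and the build mm9 come from the submitters' processing notes. The sources used here do not say how replicates were combined or how reads with several matches were treated. The tables give no read numbers, so depth is unknown. Each table had 20437 rows for 20286 symbols. Rows of 1 symbol were summed, and no member had more than 1 row.

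The log2 change used a pseudocount of 1 FPKM, and genes with at least 1 FPKM in either genotype counted as measured. Counts past 0.25, 0.5 and 1 and medians describe the pooled values, with no test. Chromosomes came from RefSeq GRCm38.p6 by symbol, for 20133 symbols, and 2 members matched through an older symbol. The library kit, per the labels' protocols, was TruSeq RNA v2, and no counting by strand is stated, so overlapping genes on opposite strands may share reads. Processed pseudogenes of glycolytic enzymes could likewise share reads with them.

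Named were all members, Tdg, and of each comparison list the 4 measured genes with the largest absolute change and any at 0.5 or more. Egln2 was named in addition, as a further isozyme. A gene that this rule names is not reported here. The members and lists were chosen with earlier results of these data known. The scripts were tested on simulated data. The 8 region lists of 5-formylcytosine, 5-hydroxymethylcytosine and p300 use mm9 and were not used here, because no annotation of that build was at hand. The work used Python 3.11.15 with pandas 2.3.3.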

Additional observations from a re-analysis of the deposited data

How the results depend on the processing

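Over the main setting and 9 alternatives, the median of the 38 genes lay between -0.35 and -0.25 and the number lower by 0.25 or more between 19 and 22. Over the same settings, 6.42% to 12.8% of all genes counted were lower by that much, and 5.86% to 13.1% were higher. The alternatives were a pseudocount of 0.1, no minimum, a minimum of 5 FPKM, quantile normalization, centring, leaving out chromosome 11, the highest row of each symbol, subtraction of neighbours and, chosen after seeing the data, equal summed FPKM. A value was taken to have moved at 0.1 or more on the log2 scale, 5 percentage points of a share, or 1.5 times for a count. The number higher by 0.25 or more was 2 in place of 1 after subtracting neighbours and with equal summed FPKM. Among the 24 genes of glycolysis it was 1 in place of 0 in each. Of all genes, 10.2% were higher after subtracting neighbours and 13.1% with equal summed FPKM, against 8.92% in the main setting. The median of those 24 genes was -0.23 after subtracting neighbours. The upper glycolysis median was -0.34 with a pseudocount of 0.1 and also -0.34 with a minimum of 5 FPKM, but -0.14 without chromosome 11. The lower glycolysis median was -0.38 after quantile normalization, and Gapdh was then at -0.23. In that setting Ldha (-0.73), Eno1 (-0.54), Pgk1 (-0.45), Pgam1 (-0.38) and Aldoa (-0.31) also moved, each to a smaller change. The cause of these shifts was not tested.

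Of 337 member values under the alternatives, 16 moved and none past 0.25 changed sign. Slc2a3, Pfkfb3 and Hif1a, all near 0, changed sign under at least 1 setting. Calls at 0.25 ended for Bnip3l and P4ha2 with equal summed FPKM, for Eno2 and P4ha2 after subtracting neighbours and for Gapdh after quantile normalization. With equal summed FPKM, 6 of the 14 oxygen sensing and target genes were lower, in place of 8 of 14. The share of all measured genes was then 6.42%, in place of 10.2%. Among low genes, Ankrd37 was at -1.30 and Egln3 at -0.80 with a pseudocount of 0.1. With Egln2 in the denominator, Egln1 held 21.9% in fl/fl and 21.6% in Tdg -/- cells and Egln3 18.2% and 12.0%. With Pfkfb1 and Pfkfb2 in the denominator, Pfkfb3 held 10.9% and 10.0%. Without these further isozymes the Egln1 share was higher in Tdg -/- cells (54.6% and 64.4%), as was that of Pfkfb3 (53.0% and 58.2%). Scaling to equal summed FPKM moved the median of all measured genes by 0.06. No paired analysis was possible because each table holds 1 pooled value for both replicates, and for the same reason no replicate could be left out. Region counts over promoters were not run.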
